A study of Vitis vinifera with 16 samples.

Results

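ADH1, ADH2, ADH3 and AOX2 were followed in ovules of 2 grape (Vitis vinifera) varieties, Zhongpu No. 18 (ZP) and Muscat Hamburg (MH). The genes were chosen by name, as the 4 table entries with exactly these identifiers among 13411 deposited genes, and all 4 were measured and tested. The study sampled ovules at day 35, 45, 55 and 61 after flowering, with 2 libraries for each variety and day and 16 in all. Its subject was lignin biosynthesis in seeded and in stenospermocarpic grapes, whose seeds form after fertilisation but abort. Which variety is the seedless one is not in the labels, and Muscat Hamburg is known as a seeded table grape. No treatment or transgene was given for any group, and all ovules were frozen with the skin left on. Levels are in FPKM, fragments scaled by transcript length and by mapped fragments, as the authors deposited them.

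Alcohol dehydrogenase turns acetaldehyde into ethanol and regenerates NAD+, which lets glycolysis continue when oxygen is short. Pyruvate decarboxylase makes the acetaldehyde in the step before. Alternative oxidase sits in the inner mitochondrial membrane, where it passes electrons from ubiquinol straight to oxygen and bypasses the proton-pumping complexes of the cytochrome pathway. Both enzymes are known from plant tissues with limited oxygen or under stress, and developing seeds, dense and enclosed by fruit, are tissues in which oxygen supply can be limited.

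The table describes ADH1, ADH2 and ADH3 as class-P alcohol dehydrogenases, the classical plant form, and AOX2 as mitochondrial alternative oxidase 2. ADH1 lies on chromosome 18 at 13457774 to 13460277 on the minus strand, and ADH3 on the same chromosome at 13500795 to 13503561 on the plus strand. The gap between them is 40.5 kb and holds 1 protein-coding gene and 1 tRNA gene. ADH2 lies on chromosome 4 at 24523122 to 24533176 on the plus strand, 2.37 kb from a gene also described as alcohol dehydrogenase 1 (LOC100255814), and AOX2 on chromosome 12 at 12566994 to 12579145 on the plus strand. These positions are those of the deposited table and equal the RefSeq annotation of assembly ASM3070453v1, in which all 4 are protein-coding and overlap no other gene. The table's own description of ADH2 is alcohol dehydrogenase 1 and RefSeq gives it the synonym ADH6, so the entry is called here by its identifier. Each value covers a whole gene, and how reads shared by similar genes were assigned was not given in the sources used here.

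The low values of the table are whole multiples of 1 fragment, which returned the fragments behind each value. The 4 genes had between 218 and 10679 fragments in a library, for a counting error between 0.968% and 6.77%, and the shallowest library had 0.668 of the depth of the deepest. The 2 libraries of a group differed by at most 1.33-fold for these genes, and in 16 of 32 pairs by more than 2 counting errors. Separate plants are not stated for them, and p-values therefore reflect library-to-library spread that may be technical. Changes below are differences of log2(FPKM + 1), with the standard error from limma, adjusted by the Benjamini-Hochberg method over the 12637 genes tested and called at an adjusted p under 0.05.

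The composition of the libraries differed strongly between the varieties. A list of 34 seed storage genes held between 0.0114% and 1.06% of the summed FPKM in ZP libraries, against 16.6% to 43.1% in MH libraries. It was drawn by words in gene descriptions and holds oleosins and late embryogenesis abundant proteins beside storage proteins. The whole list is called the storage genes below. FPKM is a share of the library, and the median change of all genes, ZP minus MH, was 0.24, 0.68, 0.64 and 0.56 on days 35, 45, 55 and 61. Changes are given as deposited and, where it matters, under median-ratio scaling, which brings the median change averaged over the days to 0.071, against 0.583 as deposited. Quantile normalization and rescaling after leaving out the storage genes were also tried. The part of composition in the variety differences was not tested beyond these scalings. In bulk tissue, fewer cells of a type and less RNA per cell cannot be told apart. The 7 seed coat and ovule markers summed to between 967 and 1288 FPKM in ZP libraries and 650 and 1166 in MH libraries. They were drawn by words in gene descriptions, are mostly anthocyanidin and leucoanthocyanidin reductases, and do not measure ovule tissue by themselves. The 102 pericarp ripening markers summed to 4237 to 8596 FPKM in ZP libraries and 4016 to 6090 in MH libraries, with 2 to 6 of them at 0 in a ZP library and 8 to 13 in an MH library. Genes of both lists were thus detected in all 16 libraries. The pericarp list was drawn by words in gene descriptions and holds broad families such as expansins, polygalacturonases and pectate lyases. It therefore does not show by itself that berry flesh was present. The 5 skin anthocyanin markers summed to 9.38 to 19.7 FPKM in ZP libraries and 0.109 to 3.50 in MH libraries, with up to 1 at 0 in a ZP library and 2 to 4 in an MH library. All are described only as anthocyanidin 3-O-glucosyltransferases, and they do not show by themselves how much skin was present. The 44 photosynthesis genes summed to 1996 to 6798 FPKM in ZP libraries and 118 to 2238 in MH libraries. The part of tissue make-up in the results below was not tested.

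Averaged over the days, ADH1, ADH3 and AOX2 were higher in ZP than in MH, and ADH2 was slightly lower. The change was 2.10 ± 0.074 for ADH1 (adjusted p = 5.67e-12), 1.64 ± 0.049 for ADH3 (adjusted p = 1.05e-12) and 1.11 ± 0.050 for AOX2 (adjusted p = 6.28e-11). Under median-ratio scaling it was 1.41 for ADH1, 0.92 for ADH3 and 0.40 for AOX2, and -0.89 for ADH2, with every call kept. All 4 genes were called in this comparison, where 88.7% of all genes were called, 61.6% as higher in ZP and 27% as lower. Under median-ratio scaling 47.1% of all genes were higher and 43.1% lower. Such a call is therefore common among the deposited genes, and the sizes and time courses below carry the description. All genes here means the 12637 tested out of 13411 deposited, and the deposited set may not hold every gene of the genome. On single days, all 4 were called at day 35 (76.9% of all genes), 3 at day 45 (78.9%), all 4 at day 55 (78.2%) and all 4 at day 61 (74.6%). The variety difference changed with the day for all 4 genes in the interaction test, which called 78.9% of all genes.

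**Figure D1:**
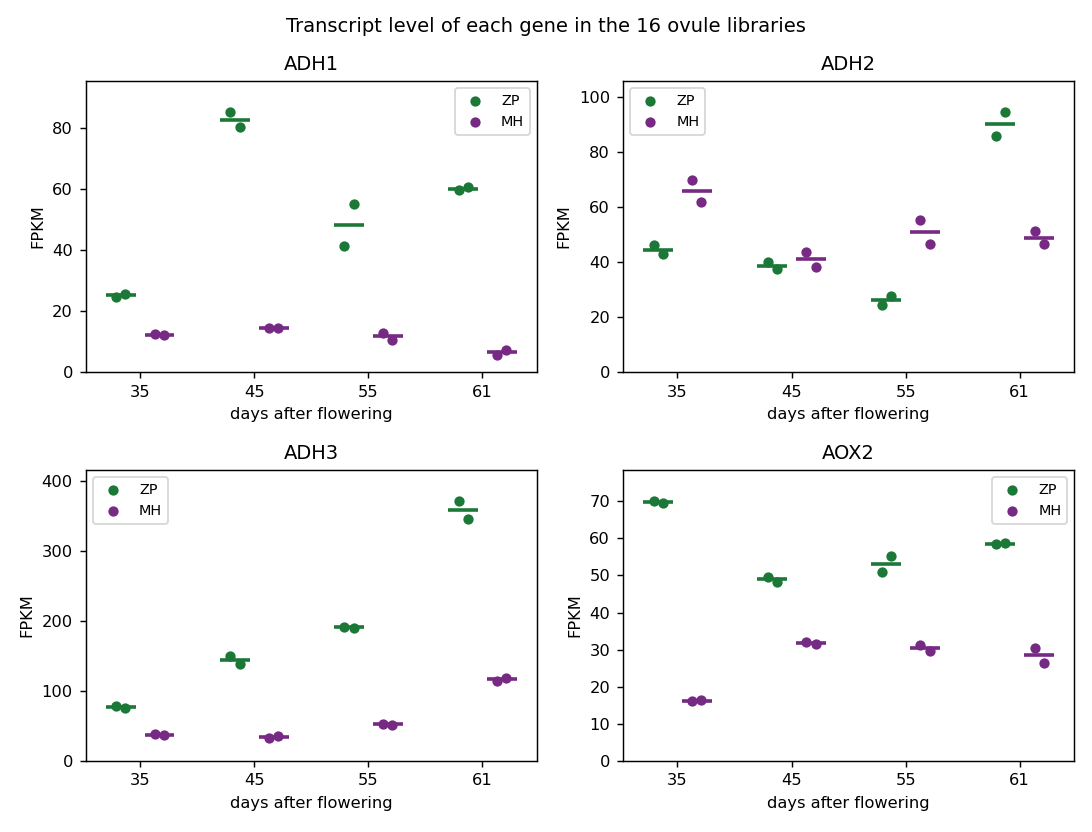
FPKM of ADH1, ADH2, ADH3 and AOX2 (panels, linear axes from 0) by days after flowering, with 1 point per library and a line at each group's mean, ZP left of MH. As deposited, ADH1 and AOX2 are higher in all ZP libraries than in any MH library, ADH3 climbs in both varieties to a highest value of 372 FPKM in ZP at day 61, and the ADH2 points of the varieties overlap.

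ADH1 was higher in ZP on every day, and the gap was widest at day 61. Its level was 24.8 and 25.5 FPKM in ZP at day 35, 85.2 and 80.2 at day 45, 41.4 and 55.1 at day 55, and 59.6 and 60.6 at day 61. In MH it was 12.5 and 12.1 FPKM at day 35, 14.6 and 14.3 at day 45, 12.9 and 10.6 at day 55, and 5.53 and 7.32 at day 61. As deposited, the lowest ZP library thus lay above the highest MH library. Dividing each library by its median-ratio factor, 1.27 for ZP replicate 1 of day 35 and 0.691 for MH replicate 1 of day 45, made the varieties overlap. How many of all genes separate the varieties in this way was not counted. The ratio of mean levels, ZP over MH, was 2.05, 5.71, 4.10 and 9.35 on the 4 days in order. The change was 0.98 ± 0.15 at day 35 (adjusted p = 4.74e-05), 2.44 ± 0.15 at day 45 (adjusted p = 5.49e-09), 1.94 ± 0.15 at day 55 (adjusted p = 4.47e-08) and 3.05 ± 0.15 at day 61 (adjusted p = 6.11e-10). Under median-ratio scaling these became 0.70, 1.54, 1.13 and 2.28, all still called.

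The time course of ADH1 had a peak at day 45 in ZP. There it rose by 1.68 ± 0.15 from day 35 to day 45 (adjusted p = 7.03e-07) and then fell by 0.78 ± 0.15 to day 55 (adjusted p = 0.00128). The last step in ZP, 0.32 ± 0.15, was not called (adjusted p = 0.122), and became 0.53 with an adjusted p of 0.029 without ZP replicate 2 of day 55, the library at 55.1 FPKM. It was also called under median-ratio scaling (0.47, adjusted p = 0.0486) and quantile normalization (0.45, adjusted p = 0.0428). In MH the first 2 steps, 0.22 and -0.28, were not called as deposited. The first was called under the 3 other scalings, at 0.64 to 0.69 (adjusted p = 0.0035 to 0.0044). The level in MH then fell by 0.79 ± 0.15 from day 55 to day 61 (adjusted p = 0.00201). From day 35 to day 61 ADH1 rose by 1.22 ± 0.15 in ZP (adjusted p = 7.82e-06) and fell by 0.85 ± 0.15 in MH (adjusted p = 0.0002), and the fall in MH was no longer called under median-ratio scaling (-0.24, adjusted p = 0.207) or quantile normalization (-0.29, adjusted p = 0.119). In the order of group means, only MH at days 35 and 55 did not differ beyond their spread.

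Among the ADH genes, ADH3 had the highest level in ZP on every day, and it rose towards day 61 in both varieties. It measured 78.4 and 76.2 FPKM in ZP at day 35, 149.5 and 138.3 at day 45, 191.5 and 190.8 at day 55, and 372.0 and 346.2 at day 61. In MH it measured 38.1 and 36.8 FPKM at day 35, 32.6 and 35.3 at day 45, 53.3 and 50.8 at day 55, and 114.9 and 118.0 at day 61. The varieties did not overlap on any day, although MH at day 61 lay above ZP at day 35. The change, ZP minus MH, was 1.02 ± 0.10 at day 35 (adjusted p = 5.63e-07), 2.05 ± 0.10 at day 45 (adjusted p = 5.33e-10), 1.86 ± 0.10 at day 55 (adjusted p = 1.06e-09) and 1.62 ± 0.10 at day 61 (adjusted p = 5.17e-09). Under median-ratio scaling it was 0.74, 1.14, 1.01 and 0.77, called on every day.

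From day 35 to day 61 ADH3 rose by 2.20 ± 0.10 in ZP (adjusted p = 4.84e-10) and by 1.61 ± 0.10 in MH (adjusted p = 9.75e-09). Under median-ratio scaling these rises were of like size, at 2.32 in ZP and 2.29 in MH, both called. As deposited, all 4 genes were called from day 35 to day 61 in each variety, against 66.9% of all genes in ZP and 68% in MH. The median change of all genes over these days was -0.013 in ZP and -0.42 in MH. In ZP each step was a rise, of 0.89 ± 0.10, 0.41 ± 0.10 and 0.91 ± 0.10. The middle one (adjusted p = 0.00608) was not called without ZP replicate 2 of day 45 (0.35, adjusted p = 0.0687). In MH the step to day 45 was -0.14 and not called (adjusted p = 0.256), and it turned to 0.35 and was called under median-ratio scaling (adjusted p = 0.0131). The later steps in MH were rises of 0.60 ± 0.10 and 1.15 ± 0.10, and the first of them was not called in a fit to its own groups alone (adjusted p = 0.134). The interaction of variety and day had an adjusted p of 9.95e-05 as deposited, and of 0.0664 under median-ratio scaling. Every pair of neighbours in the order of its group means differed beyond their spread.

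ADH2 did not follow the pattern of ADH1 and ADH3. Its level was 46.1 and 42.9 FPKM in ZP at day 35, 40.1 and 37.4 at day 45, 24.6 and 27.8 at day 55, and 85.9 and 94.6 at day 61. In MH it was 70.1 and 62.0 FPKM at day 35, 43.6 and 38.4 at day 45, 55.4 and 46.5 at day 55, and 51.2 and 46.8 at day 61. ZP was thus below MH at days 35 and 55, overlapped it at day 45 and was above it at day 61. The changes were -0.56 ± 0.13 (adjusted p = 0.00117), -0.076 ± 0.13 (adjusted p = 0.588), -0.93 ± 0.13 (adjusted p = 1.22e-05) and 0.87 ± 0.13 (adjusted p = 2.7e-05) on the 4 days in order, and -0.17 ± 0.063 averaged over them (adjusted p = 0.0183). The higher value at day 61 depended on the scaling. It was 0.033 under median-ratio scaling (adjusted p = 0.863) and 0.27 without the storage genes (adjusted p = 0.116), and stayed called under quantile normalization at 0.37. Under median-ratio scaling the differences at days 35, 45 and 55 were -0.84, -0.98 and -1.76, all called as lower in ZP.

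Within ZP, ADH2 fell by 0.55 ± 0.13 from day 45 to day 55 (adjusted p = 0.00423, and 0.0608 under median-ratio scaling) and then rose by 1.75 ± 0.13 to day 61 (adjusted p = 3.67e-07). In MH it fell by 0.67 ± 0.13 from day 35 to day 45 (adjusted p = 0.000519), and the later steps, 0.30 and -0.052, were not called. With a replicate block within each variety, chosen after seeing the data, the step of 0.30 from day 45 to day 55 was called (adjusted p = 0.026). The fall to day 45 in MH was not called under any of the 3 other scalings (-0.26 to -0.18, adjusted p = 0.11 to 0.392). From day 35 to day 61 ADH2 rose by 1.00 ± 0.13 in ZP (adjusted p = 9.88e-06) and fell by 0.42 ± 0.13 in MH (adjusted p = 0.00889). The fall in MH was not called without MH replicate 1 of day 35 (-0.33, adjusted p = 0.0762) or MH replicate 2 of day 61 (-0.36, adjusted p = 0.0631), and became 0.25 under median-ratio scaling (adjusted p = 0.197). Under quantile normalization (-0.056) and without the storage genes (-0.10) it was not called either. In MH, replicate 1 was the higher library on all 4 days. In the order of group means, MH at day 55, MH at day 61, ZP at day 35, MH at day 45 and ZP at day 45 followed each other, and no neighbours among them differed beyond their spread.

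AOX2 was highest in ZP at day 35, the day on which it was lowest in MH. It measured 70.1 and 69.5 FPKM in ZP at day 35, 49.6 and 48.3 at day 45, 50.8 and 55.4 at day 55, and 58.6 and 58.6 at day 61. In MH it measured 16.0 and 16.3 FPKM at day 35, 32.0 and 31.5 at day 45, 31.1 and 29.6 at day 55, and 30.5 and 26.5 at day 61. As deposited, no MH library reached the lowest ZP library. Median-ratio scaling removed this separation. The change, ZP minus MH, was 2.04 ± 0.10 at day 35 (adjusted p = 8.05e-10), 0.61 ± 0.10 at day 45 (adjusted p = 7.8e-05), 0.79 ± 0.10 at day 55 (adjusted p = 6.91e-06) and 1.02 ± 0.10 at day 61 (adjusted p = 5.9e-07).

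The difference in AOX2 at day 35 held under all 4 scalings, at 1.76 to 2.04, and the later ones depended on the scaling. At day 45 the change was -0.30 under median-ratio scaling, with an adjusted p of 0.0344 and the opposite sign, -0.032 under quantile normalization and -0.12 without the storage genes. At day 55 it was -0.046, 0.17 and 0.19 under these scalings, none of them called, and at day 61 it was 0.19 under median-ratio scaling and not called (adjusted p = 0.154), and 0.46 and 0.42 under the others, both called (adjusted p = 0.0013 and 0.0026). From day 35 to day 45 AOX2 fell by 0.50 ± 0.10 in ZP (adjusted p = 0.000796) and rose by 0.93 ± 0.10 in MH (adjusted p = 4.26e-06). Under median-ratio scaling these changes of AOX2 were -0.64 in ZP and 1.42 in MH, both called. Its later steps were not called in either variety. From day 35 to day 61 it rose by 0.78 ± 0.10 in MH (adjusted p = 1.26e-05, and 1.44 under median-ratio scaling). In ZP that change was -0.25 ± 0.10 (adjusted p = 0.0419), and the call was lost without any one of 8 libraries, 6 of ZP and 2 of MH (-0.25 to -0.24, adjusted p up to 0.145), and under the 3 other scalings. In the order of group means, MH at days 45, 55 and 61 were the neighbours that did not differ beyond their spread.

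Between neighbouring days, 3 of the 4 genes were called from day 35 to day 45 in ZP (55.2% of all genes) and 2 in MH (52.4%). From day 45 to day 55, 3 were called in ZP (32% of all genes) and 1 in MH (14.1%). From day 55 to day 61, 2 were called in ZP (31.4%) and 2 in MH (23.6%). ADH1 and ADH3 thus moved in opposite directions from day 45 to day 55 in ZP, and from day 55 to day 61 in MH.

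**Figure D2:**
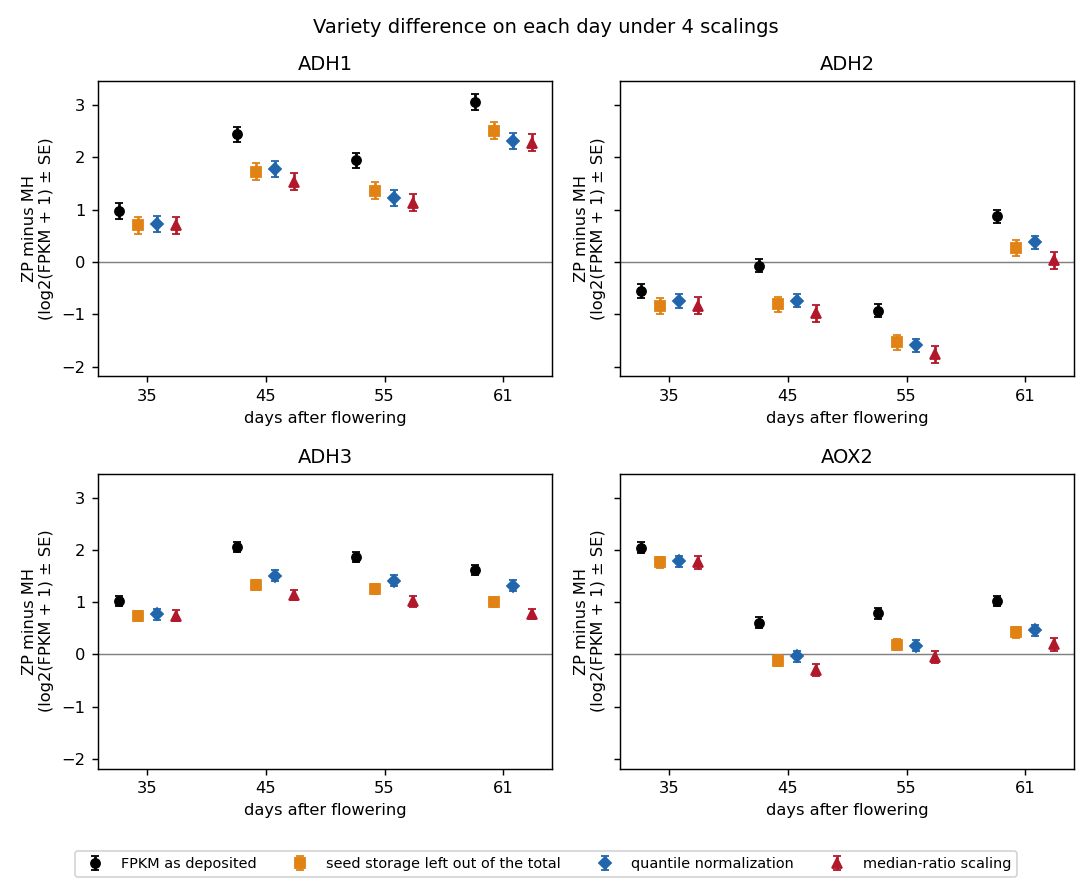
Difference ZP minus MH of log2(FPKM + 1) ± standard error by days after flowering for each gene (panels), as deposited and under 3 other scalings (colours). ADH1 and ADH3 stay above 0 on every day under all 4, ADH2 at day 61 lies between 0.033 and 0.87, and AOX2 at day 45 between -0.30 and 0.61.

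Ratios between genes of the same library do not change when all its values are multiplied by a common factor, and several of them separated the varieties. Quantile normalization is not such a factor and can change them, and the ratios below are of FPKM as deposited. Within the summed FPKM of ADH1, ADH2 and ADH3, ADH3 held 52.5% to 52.7% in ZP at day 35, 54.0% to 54.4% at day 45, 69.7% to 74.4% at day 55 and 69.1% to 71.9% at day 61. In MH it held 31.6% to 33.2% at day 35, 35.9% to 40.1% at day 45, 43.8% to 47.1% at day 55 and 67.0% to 68.6% at day 61. Among ADH1, ADH2 and ADH3, ADH3 thus led in ZP from day 35, and in both MH libraries at day 61. A further gene described as alcohol dehydrogenase 3 (LOC100260980) was not part of the sum. It had 17.4 to 32.9 FPKM in ZP and 12.8 to 46.3 FPKM in MH. Its mean in MH at day 35 was 45.2 FPKM, above the 37.5 FPKM of ADH3.

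ADH2 held 29.7% to 30.9% of the sum in ZP at day 35, 14.6% in both libraries at day 45, 9.54% to 10.1% at day 55 and 16.6% to 18.9% at day 61. In MH its share was 55.9% to 58.1% at day 35, 43.6% to 48.0% at day 45, 43.1% to 45.5% at day 55 and 27.2% to 29.8% at day 61. It led the sum in MH at days 35 and 45. The ratio of ADH1 to ADH2 lay between 0.537 and 2.14 in ZP and between 0.108 and 0.374 in MH, without overlap. The ratio of ADH3 to ADH1, of genes that lie on the same stretch of chromosome 18, was close in the varieties at day 35, at 2.99 to 3.16 in ZP and 3.04 to 3.06 in MH. At day 61 it was 5.71 to 6.24 in ZP and 16.1 to 20.8 in MH. The ratio of AOX2 to ADH2 was 1.52 to 1.62 in ZP at day 35, against 0.229 to 0.263 in MH, and at day 61 0.620 to 0.682 in ZP, against 0.566 to 0.596 in MH.

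**Figure D3:**
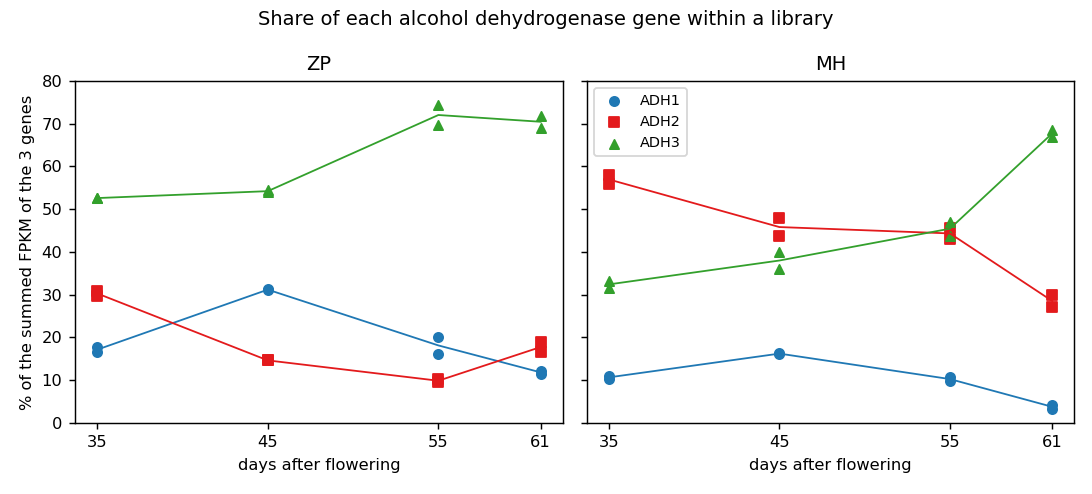
Share (percent) of ADH1, ADH2 and ADH3 in their summed FPKM by days after flowering, for ZP (left) and MH (right), with 1 point per library and a line through the means. ADH3 holds over 50% in all ZP libraries, and in MH the shares of ADH2 and ADH3 cross, with ADH3 at 67.0% to 68.6% on day 61.

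The pathway around the ADH genes was read from a list of 16 fermentation genes, 3 of which are ADH1, ADH2 and ADH3. Averaged over the days, 12 of the 16 were higher in ZP, 3 were lower and 1 was not called, with a median change of 0.62 against 0.58 for all genes, of which 61.6% were higher and 27% lower. Under median-ratio scaling 9 were higher, 5 lower and 2 not called, with a median of 0.29 against 0.071 for all genes, of which 47.1% were higher and 43.1% lower. Pyruvate decarboxylase 2 (LOC100232858), which supplies the ADH step, had 83.7 and 79.3 FPKM in ZP at day 35, 51.9 and 47.8 at day 45, 80.9 and 79.4 at day 55, and 92.5 and 84.6 at day 61. In MH its libraries lay between 30.2 and 40.004 FPKM, all below the ZP libraries as deposited but not under median-ratio scaling. Its change was 1.04 ± 0.056 (adjusted p = 4.41e-10), and 0.33 under median-ratio scaling, still called.

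Aldehyde dehydrogenases of family 2, mitochondrial enzymes that oxidise acetaldehyde to acetate, moved in opposite directions. The B4 member (LOC100267386) was higher in ZP by 1.63 ± 0.055 (adjusted p = 3.29e-12), and the B7 member (LOC100259296) was lower by -0.60 ± 0.052 (adjusted p = 8.39e-08). In ZP the B7 member had 18.5 and 19.3 FPKM at day 35 and between 72.0 and 81.9 afterwards, against 72.9 to 95.7 FPKM over all MH libraries. A gene model of the authors' own described as alcohol dehydrogenase class-3 was higher in ZP by 2.35 ± 0.075 (adjusted p = 2.06e-12). That is another class than the class-P ADH1, ADH2 and ADH3, and the description does not give it a part in fermentation. Alcohol dehydrogenase-like 3 (LOC100256495) was lower in ZP, at 0.347 to 1.52 FPKM against 2.84 to 11.7 FPKM in MH, with a change of -1.93 ± 0.082 (adjusted p = 3.45e-11). The gene next to ADH2 (LOC100255814) had low levels, at 0.322 to 0.775 FPKM in ZP and 0.180 to 2.80 FPKM in MH.

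All 12 genes of the alternative respiration list, AOX2 included, were higher in ZP when averaged over the days, where 61.6% of all genes were higher, with a median change of 0.99 against 0.58 for all genes. Under median-ratio scaling 7 were higher, 1 was lower and 4 were not called, where 47.1% of all genes were higher, with a median of 0.31 against 0.071. The list includes LOC100258527, a ubiquinol oxidase described as chloroplastic or chromoplastic and not as mitochondrial. Its change was 0.69, and 0.015 without a call under median-ratio scaling. The external NAD(P)H dehydrogenase B1 (LOC100254643), which feeds electrons from the cytosol into the ubiquinone pool without pumping protons, had 49.8 to 71.1 FPKM in ZP and 6.67 to 12.2 FPKM in MH. Its change was 2.61 ± 0.11 (adjusted p = 3.56e-11). Uncoupling proteins let protons back across the inner membrane, and uncoupling protein 2 (LOC100253572) was higher in ZP by 1.45 ± 0.085 (adjusted p = 1.1e-09). Uncoupling protein 1 (LOC100254421) had a change of 0.79 ± 0.073 (adjusted p = 1.77e-07), and 0.11 without a call under median-ratio scaling.

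The table held 2 further mitochondrial alternative oxidase genes, named Aox1a (LOC100252878) and Aox1d (LOC100247765) in its annotation and 1.82 kb apart on chromosome 2. Aox1a had 34.2 and 32.5 FPKM in ZP at day 35, 27.9 and 24.8 at day 45, 34.5 and 43.9 at day 55, and 52.7 and 44.3 at day 61. In MH it had 10.8 and 8.00 FPKM at day 35, 34.7 and 29.1 at day 45, 25.7 and 22.4 at day 55, and 25.3 and 13.2 at day 61. Like AOX2, it was lowest in MH at day 35, where the change was 1.74 ± 0.24 (adjusted p = 1.71e-05), and at day 45 the change was -0.27 ± 0.24 and not called (adjusted p = 0.319). Averaged over the days it was 0.87 ± 0.12 (adjusted p = 9.62e-06), and 0.17 without a call under median-ratio scaling (adjusted p = 0.271).

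Aox1d was low in all groups but one. It had 0.350 and 0.351 FPKM in ZP at day 35, 2.70 and 2.94 at day 45, 15.3 and 20.3 at day 55, and 3.20 and 3.13 at day 61. In MH it had 0.17 and 0.249 FPKM at day 35, 0.0697 and 0 at day 45, was listed at 0 in both libraries at day 55, and had 0.0232 and 0 at day 61. Its peak in ZP thus fell on day 55, and the step of AOX2 from day 45 to day 55 in ZP was 0.11 and not called (adjusted p = 0.444). The rise of Aox1d in ZP was 2.29 ± 0.12 from day 45 to day 55, followed by a fall of 2.16 ± 0.12 to day 61. The ratio of AOX2 to Aox1a lay between 1.11 and 2.14 in ZP and between 0.920 and 2.04 in MH, so that these 2 genes had levels of similar size.

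**Figure D4:**
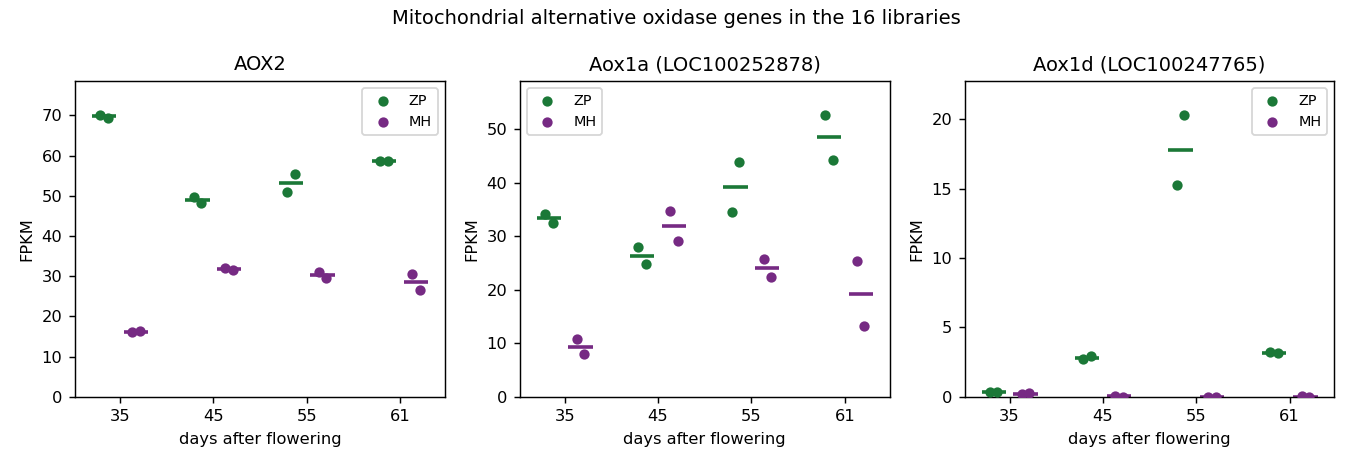
FPKM of AOX2, Aox1a and Aox1d (panels, each with its own linear axis from 0) by days after flowering, with 1 point per library and a line at each group's mean, ZP left of MH. AOX2 and Aox1a are both at their lowest in MH at day 35, and Aox1d stands at 15.3 and 20.3 FPKM in ZP at day 55 and at 0.249 FPKM or less in all MH libraries.

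The low oxygen response list, of genes known mainly from Arabidopsis to sense or follow oxygen shortage, did not move one way. Of 28 listed genes, 26 were tested, and averaged over the days 10 were higher in ZP, 15 were lower and 1 was not called, with a median change of -0.27 against 0.58 for all genes, of which 61.6% were higher and 27% lower. Under median-ratio scaling 5 were higher, 18 were lower and 3 were not called, with a median of -0.59 against 0.071 for all genes, of which 47.1% were higher and 43.1% lower. A sucrose synthase (LOC100243135), which splits sucrose without using ATP, had 0.697 to 113 FPKM in ZP against 334 to 2931 FPKM in MH, a change of -5.28 ± 0.13 (adjusted p = 1.64e-13). An ERF factor described as RAP2-3 (LOC100249982) had 8.49 to 26.3 FPKM in ZP against 176 to 458 FPKM in MH, a change of -4.04 ± 0.13 (adjusted p = 3.11e-12). The alpha subunit of pyrophosphate-dependent phosphofructokinase (LOC100249662) was lower in ZP by -2.12 ± 0.074 (adjusted p = 4.88e-12). In the other direction, respiratory burst oxidase C (LOC100252158), an NADPH oxidase, had 4.38 to 39.5 FPKM in ZP and 0.101 to 0.603 FPKM in MH, a change of 3.88 ± 0.057 (adjusted p = 2.88e-15). RAP2-12 (LOC100248027), which in Arabidopsis senses oxygen through the stability of its protein, changed by 0.80 ± 0.073 (adjusted p = 1.47e-07), and by 0.070 without a call under median-ratio scaling.

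The lists of glycolysis, of pyruvate dehydrogenase and the citric acid cycle, and of the cytochrome pathway had medians below that of all genes. Of all genes, 61.6% were higher in ZP and 27% lower. Being drawn from words in gene descriptions, the pyruvate dehydrogenase and glycolysis lists also hold chloroplastic forms. By its wording, a fructose-bisphosphate aldolase-lysine N-methyltransferase (LOC100243771) entered the glycolysis list as well. Of 13 tested genes of pyruvate dehydrogenase and the citric acid cycle, 2 were higher in ZP, 9 were lower and 2 were not called, with a median change of -0.78. Its most abundant member, described as a pyruvate dehydrogenase E1 alpha-like subunit without a stated compartment (LOC100264423), changed by -1.21 ± 0.047 (adjusted p = 1.64e-11). Of 13 cytochrome pathway genes, 4 were higher, 7 were lower and 2 were not called, with a median of -0.25. Its most abundant member, ATP synthase subunit O (LOC100241422), changed by -0.39 ± 0.076 (adjusted p = 2.78e-04). Of 45 tested glycolysis genes, 18 were higher, 23 were lower and 4 were not called, with a median of -0.13. Its most abundant member, a glyceraldehyde-3-phosphate dehydrogenase (LOC100233024), changed by -0.27 ± 0.061 as deposited (adjusted p = 9.85e-04) and was not called under quantile normalization (-0.11, adjusted p = 0.352). Under median-ratio scaling 47.1% of all genes were higher and 43.1% lower, with a median of 0.071. There the pyruvate dehydrogenase and citric acid cycle list had 2 higher and 11 lower, with a median of -1.49. The cytochrome list had 1 higher, 10 lower and 2 not called, with a median of -0.50. The glycolysis list had 14 higher and 30 lower of 44 tested, with a median of -0.73.

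**Figure D5:**
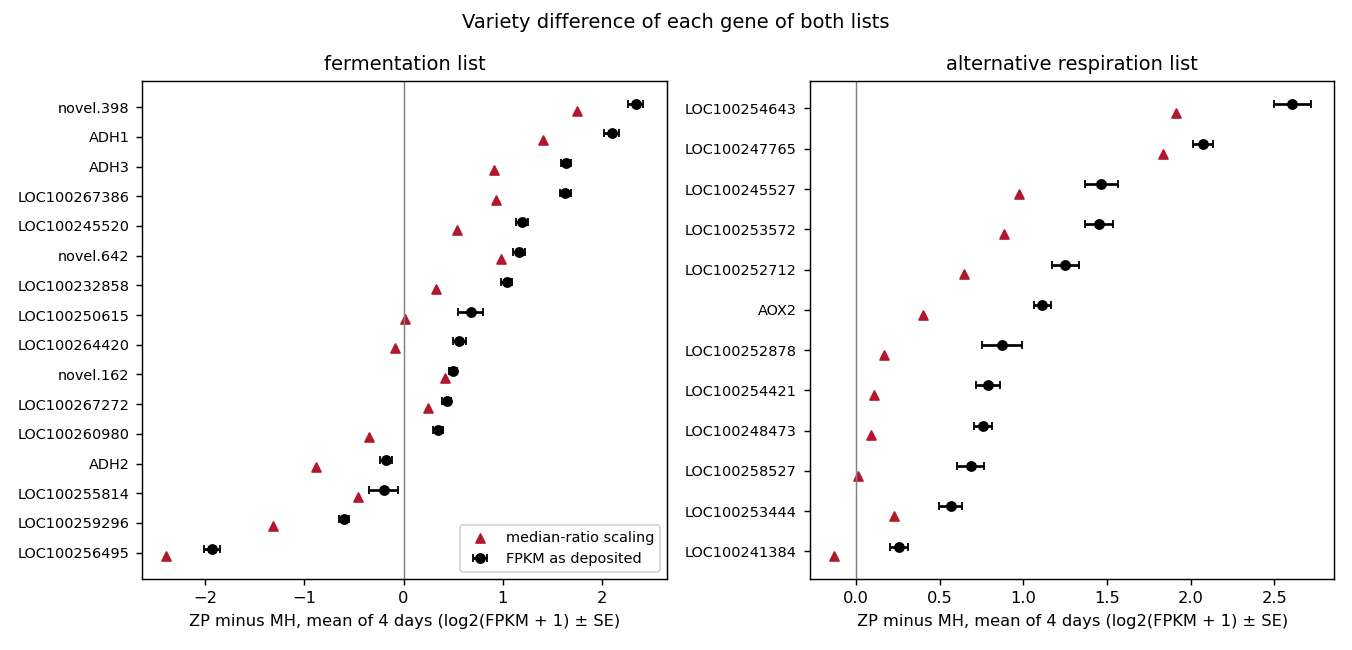
Difference ZP minus MH of log2(FPKM + 1) averaged over the 4 days, for each gene of the fermentation (left) and alternative respiration (right) lists, as deposited (circles, with standard error bars) and under median-ratio scaling (triangles, without bars). As deposited all 12 alternative respiration genes lie above 0, and under median-ratio scaling 7 of them are called as higher.

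The courses of the 4 genes were compared with those of 3809 described genes with a mean of at least 10 FPKM, by Pearson's r over the 8 group means. The values describe likeness over groups that share their libraries and scaling. Closest to ADH1 were a two-component response regulator described as ARR1 (LOC100263661, r = 0.982), a ubiquitin-conjugating enzyme (LOC100242801, r = 0.981) and a bZIP factor (LOC100264680, r = 0.976). Closest to ADH3 were an ABC transporter of family F (LOC100251610, r = 0.991), a cytochrome P450 (LOC100260935, r = 0.982) and an E3 ubiquitin ligase (LOC100256755, r = 0.982). Closest to AOX2 were a microtubule-associated protein (LOC100260313, r = 0.971), a receptor-like protein (LOC100855260, r = 0.969) and a clathrin assembly protein (LOC100261235, r = 0.964).

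The closest matches to the course of ADH2 had lower r than those of ADH1, ADH3 and AOX2. The nearest, a formin-like gene (LOC109123855, r = 0.915), had 265 and 81.9 FPKM in MH at day 35 and a gap of that kind on the other MH days, so its group means rest on libraries that differ widely. The next were a universal stress protein (LOC100246023, r = 0.902) and an actin depolymerizing factor (r = 0.800). Among the 4 genes themselves, r was 0.67 between ADH1 and ADH3, 0.71 between ADH1 and AOX2, and 0.66 between ADH3 and AOX2. ADH2 had an r of -0.13 with ADH1, 0.088 with ADH3 and -0.23 with AOX2.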

How the data were processed

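RNA from 16 grape ovule libraries was sequenced on an Illumina instrument, per the labels, and grouped by variety and day from the labels. The authors deposited FPKM values per gene, per the file headers. Aligner, counting tool, build and use of strand are not given in the sources used here, and genes with near-identical copies are therefore uncertain. All per-sample columns were used.

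Of 13411 genes, the 12637 that reached 1 FPKM in 2 or more libraries were tested. Log2(FPKM + 1) was fitted with limma 3.58.1 in R 4.3.3, with 1 mean per group, 8 residual degrees of freedom and a mean-dependent prior variance. A pseudocount of 1 understates the change of low genes. Two-sided p-values were adjusted per comparison (Benjamini-Hochberg), with a call at 0.05. The variety by day interaction used an F-test with 3 terms. The fit was checked on simulated data. Fragments were recovered from steps between low values, within 0.06 of a step, in 4863 genes (36.3%).

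The 4 genes, gene lists (patterns on descriptions) and naming rule were chosen with earlier results of these data known. From each list, the rule took the most abundant and most changed genes. LOC100255814, LOC100260980 and Aox1a to AOX2 ratios were added for position and family. Alternatives were a pseudocount of 0.1, no filter, 3 scalings, a replicate block, fits to the groups compared, and leaving out each library.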

Additional observations from a re-analysis of the deposited data

Results flagged for a closer look

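For all 4 genes the difference between the varieties was not the same on the 4 days, by the interaction test (limma, Benjamini-Hochberg, 12637 genes). The adjusted p was 3.97e-06 for AOX2, whose difference was 2.04 at day 35 and 0.61 at day 45. It was 5.49e-06 for ADH2, which was lower in ZP at day 55 (-0.93) and higher at day 61 (0.87) as deposited. It was 9.17e-06 for ADH1, whose difference was 0.98 at day 35 and 3.05 at day 61. It was 9.95e-05 for ADH3, whose difference was 1.02 at day 35 and 2.05 at day 45. Of all genes, 78.9% were called in this test, and the call of ADH3 was lost under median-ratio scaling.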

How the results depend on the processing

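Of 56 results on the 4 genes (13 changes and the interaction for each), all kept direction and call with a pseudocount of 0.1, with no filter and with a replicate block. Scaling mattered most, and 40 were kept under median-ratio scaling, 46 under quantile normalization and 47 without the storage genes. The cause was not tested.

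Median-ratio scaling reversed the changes of AOX2 at day 45 (-0.30) and day 55 (-0.046) between the varieties and from day 55 to 61 in MH (0.047), of ADH2 in MH from day 35 to 61 (0.25) and from day 55 to 61 (0.089), and of ADH3 in MH from day 35 to 45 (0.35). It ended the calls of AOX2 at day 61 (0.19) and from day 35 to 61 in ZP (-0.13), of ADH2 at day 61 (0.033), from day 45 to 55 in ZP (-0.44) and from day 35 to 45 in MH (-0.18), of ADH1 from day 35 to 61 in MH (-0.24) and of the ADH3 interaction (adjusted p = 0.0664). It added calls for ADH1 from day 55 to 61 in ZP (0.47) and from day 35 to 45 in MH (0.69) and for ADH2 at day 45 (-0.98). Quantile normalization reversed AOX2 at day 45 (-0.032) and ADH3 in MH from day 35 to 45 (0.24). It ended the calls of AOX2 at day 55 (0.17) and from day 35 to 61 in ZP (-0.17), of ADH1 from day 35 to 61 in MH (-0.29) and of ADH2 in MH from day 35 to 61 (-0.056) and to 45 (-0.26). It added ADH1 from day 55 to 61 in ZP (0.45) and from day 35 to 45 in MH (0.64) and ADH2 at day 45 (-0.74). Without the storage genes AOX2 at day 45 (-0.12) and ADH3 in MH from day 35 to 45 (0.30) reversed. Calls ended for AOX2 at day 55 (0.19) and from day 35 to 61 in ZP (-0.24), and for ADH2 at day 61 (0.27) and in MH from day 35 to 61 (-0.10) and to 45 (-0.23). Calls were added for ADH1 in MH from day 35 to 45 (0.65) and ADH2 at day 45 (-0.81).

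Fitted to the compared groups alone, with fewer libraries, ADH2 was called from day 35 to 45 in ZP (-0.19, adjusted p = 0.0149), ADH3 was not from day 45 to 55 in MH (0.60, adjusted p = 0.134), and 493 genes were called from day 45 to 55 and 1411 from day 55 to 61 in MH, against 1780 and 2988. The labels do not say what the replicate numbers mark. Deviations of same-numbered libraries had r of 0.41 to 0.73 over the 6 pairs of MH days, 0.076 to 0.27 over the 6 pairs of ZP days, and -0.60 to 0.083 between varieties. A replicate block within each variety, chosen after seeing the data, added the call of ADH2 from day 45 to 55 in MH (0.30, adjusted p = 0.026) and gave 2929 called genes in that comparison.

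Leaving out each library in turn kept 49 of the 56 results. The range was 0.12 to 0.53 for ADH1 from day 55 to 61 in ZP, -0.17 to 0.014 for ADH2 at day 45, -0.51 to -0.33 for ADH2 from day 35 to 61 in MH, -0.18 to 0.071 for ADH2 from day 55 to 61 in MH, 0.35 to 0.46 for ADH3 from day 45 to 55 in ZP, -0.25 to -0.24 for AOX2 from day 35 to 61 in ZP, and -0.19 to 0.0049 for AOX2 from day 55 to 61 in MH. Genes called from day 55 to 61 in MH numbered 1969 to 3154, the lowest without MH replicate 1 of day 61. Leaving 1 library in a group assumes that it varies like the others. Counting error, at most 6.77%, limits ADH1 in MH most.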
